A study of Mus musculus with 8 samples.

Results

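Imprinted genes are expressed mainly or only from the maternal or the paternal copy, some of them only in certain tissues. Here 40 of them were followed in mouse trophectoderm at embryonic day 4.5. They were taken from a list of known mouse imprinted genes, and each was read from a probe set that the platform annotation pairs with exactly 1 gene symbol. Of the 40 genes, 31 had such a probe set, out of 14860 genes with 1 in the whole table. The 31 comprised 15 maternally and 16 paternally expressed genes. Meg3 and Snrpn had only probe sets shared with another gene, and Peg10, Mest, Slc22a3, Zim1, Zrsr1, Nnat and Blcap are not analysed here.

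Trophectoderm, the outer cell layer of the blastocyst that goes on to form the placenta, was cut here from the abembryonic pole, away from the inner cell mass. The high fat diet group held 4 pools from dams fed Teklad 06414, and the control diet group held 4 pools from dams fed Lab Diet 5015. All dams were C57BL/6J females fed from weaning and mated at 16 weeks of age to C57BL/6J males, and each pool joined the trophectoderm of 5 blastocysts on 1 array. Both parents were of the same strain, so the array gives the total RNA of a gene and says nothing of which parental copy it came from. The labels describe the arrays of a diet as biological replicates without saying how many dams contributed, and p-values therefore rest on the variation among pools alone. In pooled tissue, fewer cells of a type and less RNA per cell cannot be told apart.

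Imprints are DNA methylation marks, or in some placental genes histone marks, set in the egg or the sperm and kept on that copy after fertilisation. Many imprinted genes act on growth of the fetus and placenta. As a rule paternally expressed genes such as Igf2 favour growth and maternally expressed genes such as Igf2r, Grb10 and Phlda2 limit it. Several of the members, among them Ascl2, Cd81, Tssc4 and Gatm, are imprinted mainly in placental tissue, and Ube3a and Inpp5f mainly in brain.

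All values are signals on the log2 scale, with precision set by 4 arrays a diet. Array medians ran from 5.76 to 5.96 with the high fat diet and from 5.60 to 5.71 with the control diet, so the high fat diet arrays read higher before any gene was considered. The median log2 change of all 16015 tested probe sets, high fat diet minus control diet, was 0.22. High fat diet pool 3 stood apart, with a mean correlation of 0.832 with the other arrays against 0.879 to 0.890 for the rest. Background was taken on each array as the 95th percentile of 842 probe sets of chemosensory receptors, which are known from sensory neurons. It lay between 6.15 and 6.65 on high fat diet arrays and between 5.88 and 6.13 on control diet arrays. Of 12 trophectoderm markers 10 were measured, and all 10 lay above background on 4 or more arrays, 8 of them on all 8. Their median log2 change was 0.07, below that of all probe sets, and 2, Gata3 (-1.49) and Fgfr2 (-1.78), read lower at an unadjusted limma p under 0.05, beside 1.79% of all. Gata3 lay lower in every high fat diet pool than in any control diet pool, as did 0.855% of all tested probe sets. Of 10 inner cell mass markers 5 lay above background on 4 or more arrays, with list means, each gene centred over the 8 pools, from -0.06 to 0.44 in high fat diet pools and from -0.63 to 0.59 in control diet pools.

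No imprinted gene passed the threshold of an adjusted p of 0.05 between diets. In limma with Benjamini-Hochberg adjustment over all probe sets, 0 of 31 members were called, and the smallest adjusted p was 0.115. The background rate was 0.00624% of all tested probe sets, that is 1 probe set. At an unadjusted limma p under 0.05, 11 members (35.5%) read higher and 0 lower with the high fat diet, where 30.1% of all tested probe sets read higher and 1.79% lower. High fat diet values all lay above all control diet values for 9 members (29.0%), against 25.4% of all tested probe sets, and 0 members had all high fat diet values lower, against 0.855%. The members' median log2 change was 0.24, beside 0.22 for all tested probe sets, and 26 of 31 (83.9%) lay above 0, beside 78.7%.

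The split by the copy known to be expressed in mouse, which was not measured here, gave nearly equal medians. The 15 maternally expressed members had a median log2 change of 0.24 and ran from -0.82 to 1.84, and the 16 paternally expressed members had a median of 0.25 and ran from -0.32 to 1.05. Log2 changes lay above 0 for 12 maternally expressed members, 4 of which read higher at an unadjusted p under 0.05. For paternally expressed members these counts were 14 and 7. Over all tested probe sets 30.1% read higher at that level. Both medians lay close to that of all probe sets, and the difference between the kinds was not tested.

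**Figure D1:**
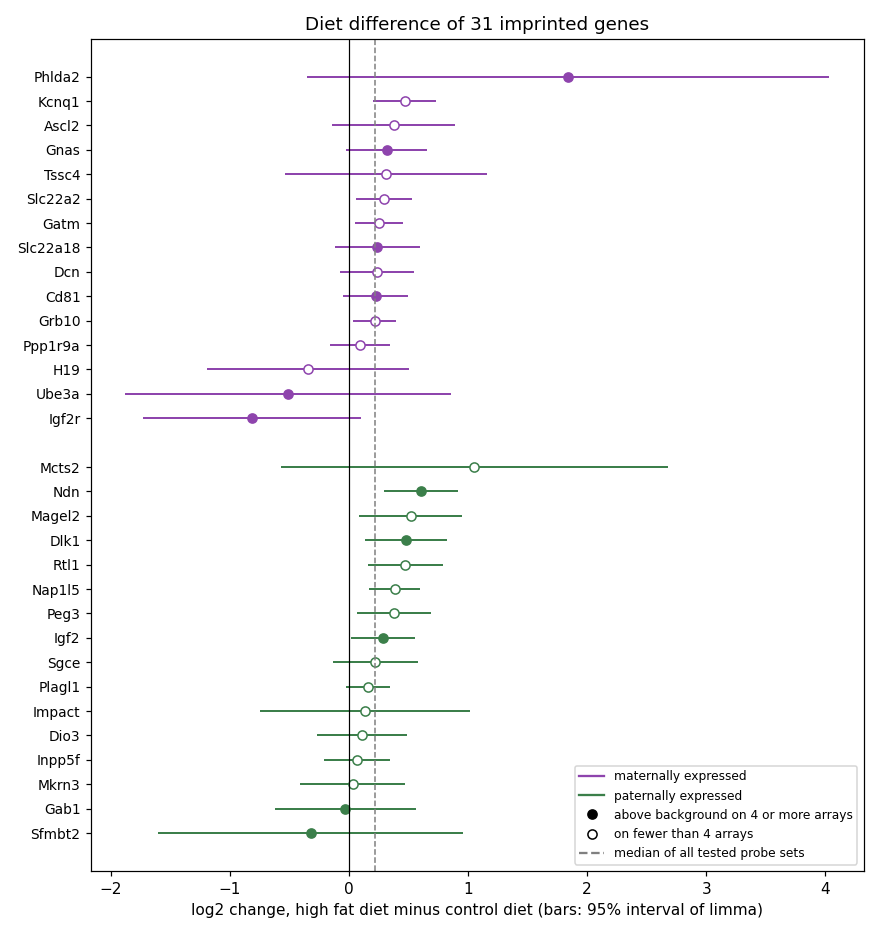
Log2 change of each of the 31 measured imprinted genes, high fat diet minus control diet (n = 4 pools each), with the 95% interval of limma as bars. Most genes of both parental kinds lie near the dashed median of all tested probe sets at 0.22, and the wide bars at the ends belong to Phlda2, Mcts2, Igf2r, Ube3a and Sfmbt2.

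Most imprinted genes were above background on fewer than 4 arrays, as were 62.1% of all tested probe sets. Members above background numbered 9 to 14 per high fat diet array and 9 to 15 per control diet array. All tested probe sets above it numbered 4723 to 6083 and 5937 to 6635 in turn. Background itself was higher on every high fat diet array, so counts of the 2 diets were taken against unlike cutoffs. Those above it on at least 4 of the 8 arrays were 11 of 31, beside 37.9% of all tested probe sets. They were Gnas, Igf2r, Cd81, Phlda2, Slc22a18, Ube3a, Ndn, Dlk1, Igf2, Sfmbt2 and Gab1. A further 7 reached it on 1 to 3 arrays, and 13 on 0 arrays, beside 49.6% of all tested probe sets on 0 arrays. Of the 11 members that read higher at an unadjusted p under 0.05, 3 belonged to the first set, 2 to the second and 6 to the last. Over all tested probe sets 30.1% read higher at that level, and the share within each set was not counted. Where both diets lay below background, a difference in signal is no fold change of expression, and it is given below as a difference only. The 13 members never above background had a median log2 change of 0.22, as did the 7939 tested probe sets never above it.

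Promoter sequence, from RefSeq on build GRCm38.p6, was at hand for 25 of the 31 members. Their 35 promoter windows, 250 bases before to 50 after the start, held a median of 22 CpG sites, against 7 over all 32851 windows. CpG is the dinucleotide at which DNA is methylated. Some genes gave several windows, and whether any window carries an imprint was not tested. Shown are stretches of the member with the widest spread between pools (Phlda2), the one that read lowest relative to the control diet (Igf2r) and the one with the smallest p (Ndn). Each gives the 120 bases before the start, with CpG in capitals.
Phlda2, chr7:143502525-143502644, minus strand: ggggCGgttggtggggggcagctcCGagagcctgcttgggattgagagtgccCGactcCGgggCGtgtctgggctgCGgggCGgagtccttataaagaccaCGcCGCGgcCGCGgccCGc
Igf2r, chr17:12769707-12769826, minus strand: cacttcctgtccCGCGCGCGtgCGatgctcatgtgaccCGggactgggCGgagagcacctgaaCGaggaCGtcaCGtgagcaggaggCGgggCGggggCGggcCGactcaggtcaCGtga
Ndn, chr7:62348157-62348276, plus strand: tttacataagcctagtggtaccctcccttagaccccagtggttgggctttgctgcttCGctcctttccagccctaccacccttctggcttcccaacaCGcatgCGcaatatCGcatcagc
The stretches of Phlda2 and Igf2r held 13 and 15 CpG sites, and that of Ndn held 4. The letters TGCCGC, bound by the imprint-keeping zinc finger protein ZFP57 when methylated, were searched on both strands and stood in 6 of the 35 windows (17.1%), against 11.6% of all windows. The longer YY1 motif, searched likewise, stood in 0 of the 35 and in 0.633% of all windows, and it overlapped a TGCCGC match 24 times over all windows and 0 times in the members.

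Igf2, the fetal growth factor expressed from the paternal copy, gave 6.71, 6.74, 7.02 and 6.79 in high fat diet pools 1 to 4, against 6.33, 6.57, 6.53 and 6.70 in control diet pools. Every high fat diet value lay above every control diet value, as for 25.4% of all tested probe sets, here by a narrow margin. The log2 change was 0.28 with an SE of 0.11 (limma adjusted p = 0.14), close to the shift of all probe sets, and with cyclic loess scaling it was -0.016.

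Igf2r, the maternally expressed receptor that removes IGF2, gave 6.43, 6.51, 6.53 and 6.71 in high fat diet pools, against 8.36, 6.94, 7.74 and 6.41 in control diet pools. High fat diet pools lay close together and near background, while control diet pools were spread, with pools 1 and 3 the highest and pool 4 below every high fat diet pool. The log2 change was -0.82 with an SE of 0.39 (limma adjusted p = 0.184), and without control diet pool 1 it was -0.48. Igf2r was the only member to read lower at an unadjusted p under 0.05 after median centring, quantile normalization or cyclic loess. The adjusted p was 0.381, 0.378 and 0.530 with these in turn.

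H19, the maternally expressed RNA that neighbours Igf2, was chosen after its values were seen. High fat diet pools gave 5.93, 5.85, 6.06 and 5.99, against 5.92, 6.00, 7.49 and 5.79 in control diet pools. Control diet pool 3 was high, and the other 7 pools lay within a narrow band near background. The log2 change was -0.34 with an SE of 0.36, and without control diet pool 3 it was 0.053. Background was higher on high fat diet arrays, and no high fat diet pool exceeded it. The control diet mean gave no bound above 0.

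Dlk1, a paternally expressed transmembrane protein that restrains differentiation, gave 7.07, 7.16, 7.68 and 7.22 in high fat diet pools, against 6.69, 6.87, 6.76 and 6.92 in control diet pools. The groups did not overlap, with the high fat diet higher, as for 25.4% of all tested probe sets. All 8 values were above background. The log2 change was 0.48 with an SE of 0.14 (limma adjusted p = 0.117), and it was 0.29 with median centring and 0.20 with cyclic loess. Rtl1, a retrotransposon-derived gene of the same locus needed for placental capillaries, gave 5.52, 5.60, 6.10 and 5.73 in high fat diet pools, against 5.25, 5.34, 5.20 and 5.25 in control diet pools. Its groups did not overlap either, but every value lay below background, so the difference of 0.47, which was 0.23 with cyclic loess, is one of dim signals. Dio3, the third measured gene of the locus, which encodes a thyroid hormone deiodinase, differed by 0.11 in signal, and by -0.16 with cyclic loess. The probe set shared by Meg3 and Dlk1 was above background on 0 arrays and differed by 0.48.

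Grb10, an adaptor that dampens insulin and growth factor signalling, and Plagl1, a zinc finger factor of the imprinted gene network, were above background on 0 arrays. Their signals differed by 0.22 and 0.16, and by -0.044 and -0.11 with cyclic loess. Gab1, a docking protein of growth factor receptors that is paternally expressed in placenta, was above background in 3 of 4 high fat diet pools and in 4 of 4 control diet pools. It gave 6.87, 7.51, 6.40 and 6.67 in high fat diet pools, against 6.78, 6.67, 6.85 and 7.29 in control diet pools. The groups overlapped throughout, and the log2 change of -0.03 (95% interval -0.62 to 0.55) turned in sign without high fat diet pool 3 (0.12), high fat diet pool 4 (0.031) or control diet pool 4 (0.097).

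**Figure D2:**
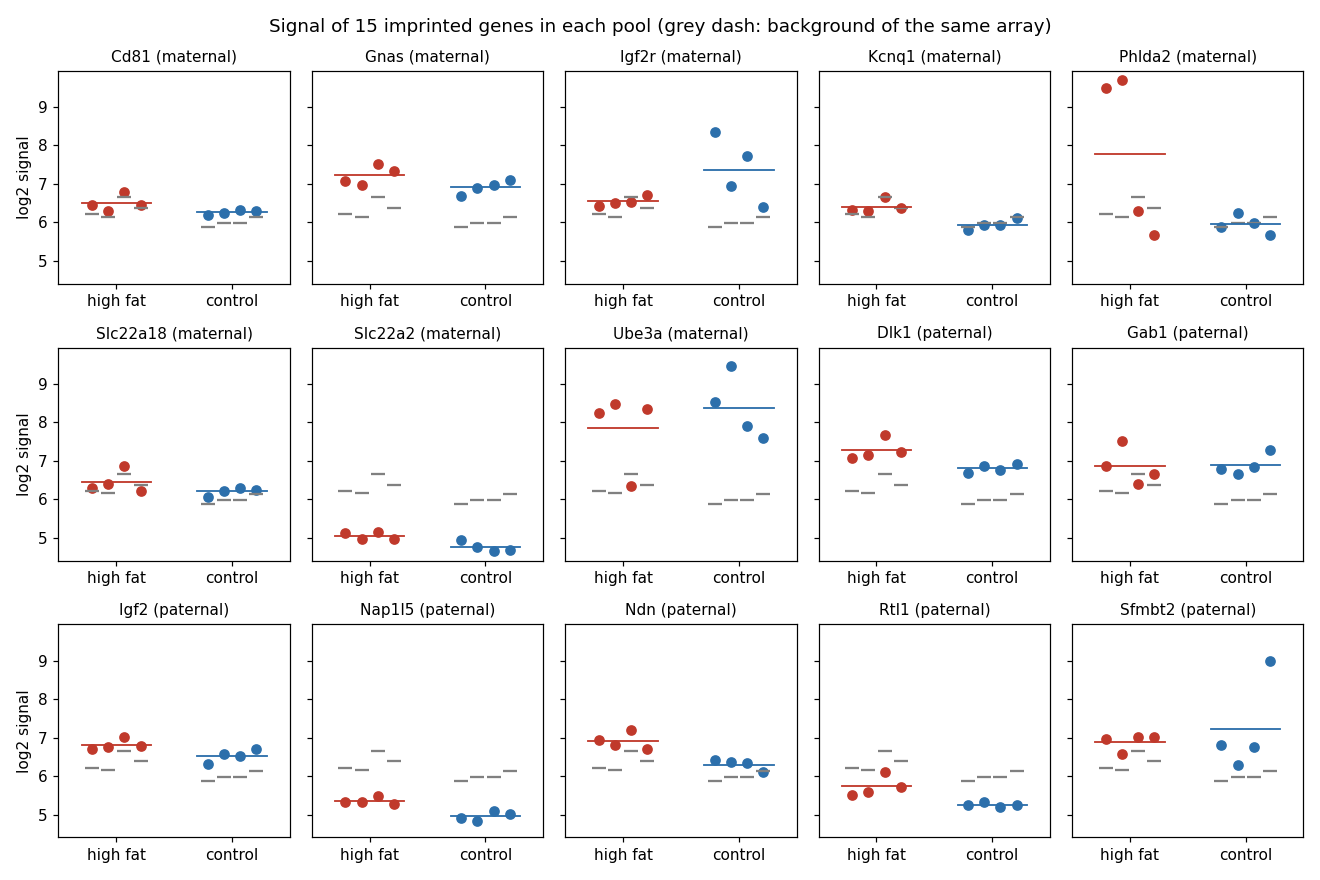
Log2 signal of 15 imprinted genes in each pool, high fat diet left and control diet right, with the group mean as a line and the background of the same array as a grey dash. Phlda2 splits the high fat diet pools into 9.49 and 9.69 against 6.29 and 5.68, and Slc22a2, Nap1l5 and Rtl1 lie below background in every pool.

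Phlda2, a maternally expressed pleckstrin-homology protein that limits placental size, had the widest spread of all members between pools. Its log2 signals were 9.49, 9.69, 6.29 and 5.68 in high fat diet pools, against 5.89, 6.25, 5.99 and 5.67 in control diet pools. High fat diet pools 1 and 2 stood 3.28 and 3.54 log2 units above the background of their own arrays, while pools 3 and 4 lay below it. Control diet pools lay at background, pools 1 to 3 slightly above it and pool 4 below. The group means were 7.79 ± 2.10 and 5.95 ± 0.24 (SD, n = 4 each), a log2 change of 1.84 with an SE of 0.94 (limma adjusted p = 0.204). The spread among high fat diet pools thus exceeded the difference between diets. Without high fat diet pool 2 the change was 1.21, and without pool 1 it was 1.27. Trophectoderm markers, as a list mean centred over the 8 pools, stood at 0.18, -0.11, 0.03 and -0.58 in high fat diet pools 1 to 4, against 0.19, 0.14, 0.30 and -0.15 in control diet pools. Inner cell mass markers stood at 0.44, 0.02, 0.42 and -0.06 in high fat diet pools, against -0.50, 0.59, -0.63 and -0.27 in control diet pools. Their part in the split of Phlda2 was not tested.

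Other measured members of the same imprinted domain were dim. Among its genes outside the member list, Cdkn1c, Nap1l4 and Osbpl5 lay above background in all 8 pools, and Tspan32 in 0. These genes were chosen after their values were seen. Cd81, a tetraspanin of the cell surface, gave 6.45, 6.30, 6.78 and 6.45 in high fat diet pools, against 6.19, 6.25, 6.33 and 6.30 in control diet pools. Slc22a18, an organic cation transporter-like protein, gave 6.29, 6.39, 6.86 and 6.21 in high fat diet pools, against 6.06, 6.21, 6.29 and 6.24 in control diet pools. Cd81 lay just above background in all 8 pools and Slc22a18 in most, and both overlapped between diets and differed by 0.23 and 0.24, with the sign turned to lower by cyclic loess (-0.075 and -0.063). Kcnq1, a potassium channel whose intron starts the RNA that silences this domain, gave 6.32, 6.29, 6.65 and 6.38 in high fat diet pools, against 5.80, 5.94, 5.93 and 6.11 in control diet pools. Its groups did not overlap, as for 25.4% of all tested probe sets in that direction. Since 2 high fat diet pools and 0 control diet pools exceeded background, the measured difference of 0.47 (limma adjusted p = 0.115) is not exact. It was 0.28 with median centring or quantile normalization and 0.18 with cyclic loess. Against the 99th percentile of the receptors, no pool of either diet exceeded background.

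Ascl2 and Tssc4 of this domain were chosen after their values were seen. Ascl2, a transcription factor needed for the spongiotrophoblast of the placenta, gave 5.85, 6.06, 6.87 and 6.05 in high fat diet pools, against 5.75, 6.00, 5.71 and 5.87 in control diet pools. It exceeded background in 1 pool of each diet, and its difference of 0.37 was 0.15 without high fat diet pool 3 and 0.094 with cyclic loess. Tssc4 gave 5.63, 5.56, 7.06 and 5.57 in high fat diet pools, against 5.48, 6.10, 5.41 and 5.58 in control diet pools. High fat diet pool 3 alone was high there, and the difference of 0.31 was -0.054 without it. Across the 8 measured members of the stretch from H19 to Phlda2, 7 log2 changes were above 0, with a median of 0.30. Over all tested probe sets 78.7% lay above 0, with a median of 0.22.

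Sfmbt2, a paternally expressed Polycomb protein needed for the placenta, gave 6.95, 6.57, 7.03 and 7.01 in high fat diet pools, against 6.82, 6.29, 6.76 and 8.99 in control diet pools. All 8 values were above background, and control diet pool 4 was 4.50-fold above the median of the other 7 pools. The log2 change was -0.32 with an SE of 0.55, and without that pool it was 0.27. Gnas, which encodes the stimulatory G protein alpha subunit and has transcripts of either parental origin, gave 7.09, 6.99, 7.52 and 7.33 in high fat diet pools, against 6.70, 6.90, 6.96 and 7.10 in control diet pools. It was above background in every pool with little spread, and its groups overlapped (log2 change 0.31, SE 0.14, limma adjusted p = 0.172). The change was 0.13 with median centring and 0.044 with cyclic loess.

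Ndn, a MAGE-family growth suppressor of the Prader-Willi region, had the smallest limma p of all members. It gave 6.94, 6.80, 7.20 and 6.69 in high fat diet pools, against 6.41, 6.36, 6.34 and 6.10 in control diet pools. Every high fat diet pool lay above every control diet pool, as for 25.4% of all tested probe sets. Background was exceeded in 4 high fat diet pools and 3 control diet pools, and in 0 pools when set at the 99th percentile. The means were 6.91 ± 0.22 and 6.30 ± 0.14 (SD, n = 4 each), a log2 change of 0.61 with an SE of 0.13 that did not pass (adjusted p = 0.115). It ran from 0.30 to 0.68 over the settings run. Its neighbours Magel2, a partner of ubiquitin ligases, and Mkrn3, a makorin that holds back puberty, were above background on 0 arrays. Their signals differed by 0.52 and 0.03, and by 0.28 and -0.22 with cyclic loess.

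Ube3a, a ubiquitin ligase expressed from the maternal copy in neurons, was clearly above background in 7 pools. It gave 8.25, 8.48, 6.35 and 8.34 in high fat diet pools, against 8.52, 9.47, 7.89 and 7.58 in control diet pools. High fat diet pool 3 alone lay below background, and the change of -0.51 (SE 0.58) was -0.01 without it. Snrpn and Snurf, which are read from 1 transcript of the same region, share a probe set that was bright in every pool. It gave 10.42, 10.78, 10.94 and 10.49 in high fat diet pools, against 10.52, 11.01, 10.72 and 10.88 in control diet pools. These groups overlapped, with a log2 change of -0.12 (95% interval -0.49 to 0.24).

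**Figure D3:**
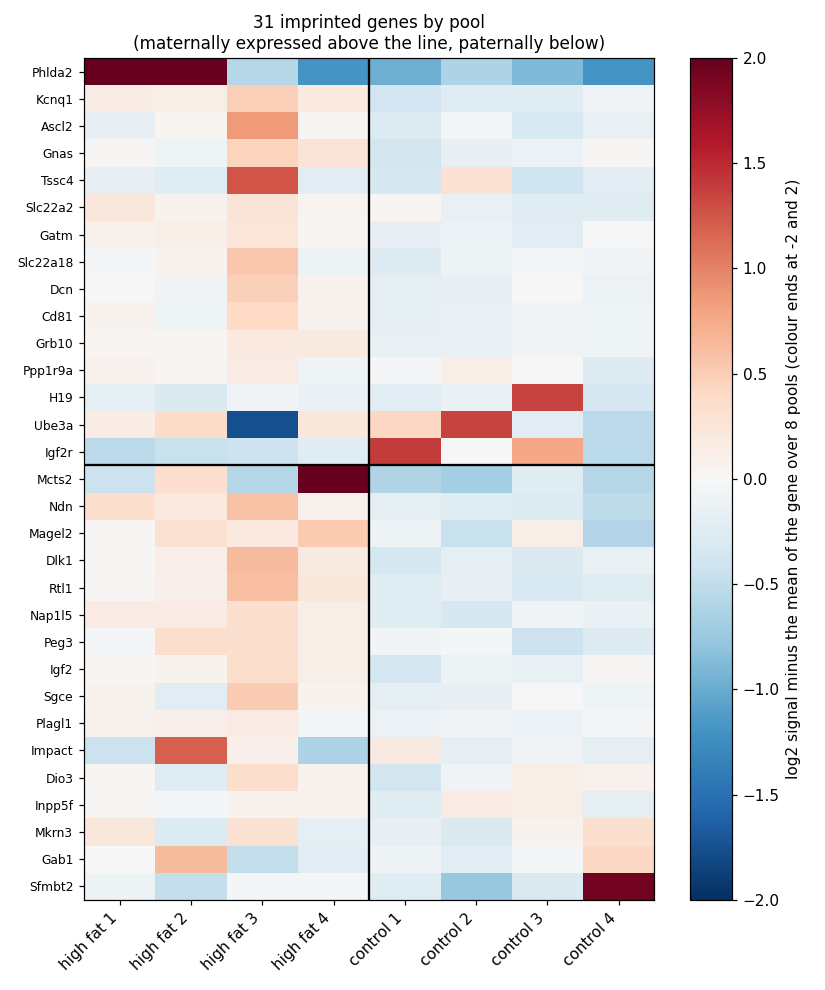
Log2 signal of each imprinted gene minus its mean over the 8 pools, with high fat diet pools left and control diet pools right, maternally expressed genes above the line and paternally expressed below. Single dark cells mark Phlda2 in high fat diet pools 1 and 2, Mcts2 in high fat diet pool 4, Ube3a (low) in high fat diet pool 3 and Sfmbt2 in control diet pool 4, on a pale shift between the diets.

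Single pools carried the largest values of several further members. Mcts2 and Impact were chosen after their values were seen. Mcts2, a retrogene related to a translation re-initiation factor, gave 3.37, 4.12, 3.22 and 6.56 in high fat diet pools, against 3.18, 3.11, 3.55 and 3.22 in control diet pools. High fat diet pool 4 was the 1 pool above background, so the difference of 1.05 in signal gives no bound above 0, and it was 0.30 without that pool. Impact, a regulator of the kinase GCN2, gave 4.98, 6.60, 5.50 and 4.79 in high fat diet pools, against 5.58, 5.22, 5.32 and 5.21 in control diet pools. Here high fat diet pool 2 was the 1 pool above background, and the difference of 0.13 in signal was -0.24 without it and -0.11 with cyclic loess. In all, 11 of 248 member values lay over 1 log2 unit from the median of the other 7 pools, and they came from 8 members. The within-diet SD exceeded 0.5 for 8 of 31 members (25.8%) and for 19.4% of all tested probe sets.

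Slc22a2, an organic cation transporter, gave 5.13, 4.97, 5.16 and 4.96 in high fat diet pools, against 4.95, 4.76, 4.66 and 4.67 in control diet pools. Nap1l5, a nucleosome assembly protein-like gene, gave 5.32, 5.33, 5.49 and 5.29 in high fat diet pools, against 4.92, 4.85, 5.09 and 5.03 in control diet pools. Neither group of either gene reached background, so their non-overlapping values (differences 0.30 and 0.38, and 0.080 and 0.16 with cyclic loess) are differences of dim signals. Such non-overlap, with the high fat diet higher, was seen for 25.4% of all tested probe sets. Peg3, a zinc finger protein, was chosen after its values were seen and exceeded background in 1 high fat diet pool and 2 control diet pools. It gave 5.99, 6.37, 6.35 and 6.13 in high fat diet pools, against 5.96, 6.00, 5.61 and 5.76 in control diet pools. Both means lay below the mean background of their diet, and the difference of 0.38 in signal (limma adjusted p = 0.122) was 0.19 with median centring and 0.095 with cyclic loess. Dcn, Gatm (creatine synthesis), Ppp1r9a (the actin-binding protein neurabin), Sgce (a sarcoglycan) and Inpp5f (a phosphoinositide phosphatase) were never above background. Their signals differed by 0.24, 0.25, 0.092, 0.22 and 0.065, and those of Dcn, Ppp1r9a and Inpp5f turned to lower with cyclic loess (-0.0051, -0.13 and -0.11).

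Dcn, the proteoglycan decorin, is also a gene of uterine stroma, and the blastocysts were flushed from the uterus. Its values, shown in full, were chosen after they were seen. Of 10 uterine markers 5 lay above background on all 8 arrays (Col1a1, Col1a2, Col3a1, Hoxa10 and Hand2) and 5 on 0 (Lum, Pgr, Ltf, Muc1 and Calb1), and 8 read higher at an unadjusted p under 0.05, beside 30.1% of all tested probe sets. Their median log2 change was 0.42, beside 0.22. Their centred list mean ran from 0.01 to 0.48 in high fat diet pools and from -0.30 to -0.08 in control diet pools, while Dcn itself gave 5.37, 5.30, 5.84 and 5.45 in high fat diet pools, against 5.18, 5.20, 5.38 and 5.25 in control diet pools. Blood markers were 5 of 8 measured, 1 of them above background on all 8 arrays and 3 on 0. As a centred list mean they ran from 0.04 to 0.27 in high fat diet pools and from -0.19 to -0.06 in control diet pools. The blood markers' median log2 change was 0.27, close to the 0.22 of all tested probe sets. What part such cells had in the members' values was not tested.

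Scaling between arrays took away most of the shift, for the members as for all probe sets. After median centring the members' median was 0.050 and 5 members (16.1%) read higher at an unadjusted p under 0.05, beside 8.68% of all tested probe sets. Those 5 also had groups that did not overlap, beside 7.07% of all, while 1 member read lower, beside 4.22%, and 0 lay wholly lower, beside 2.62%. After quantile normalization the median was 0.062, and again 5 members read higher, beside 9.98%, and 5 did not overlap, beside 8.94%. There 1 member read lower, beside 3.01%, and 0 lay wholly lower, beside 1.89%. With either scaling the 5 were Dlk1, Rtl1, Ndn, Nap1l5 and Kcnq1. With cyclic loess the median was -0.0051, 15 of 31 lay above 0, and 3 members (9.68%) read higher, Rtl1, Ndn and Kcnq1, beside 4.1% of all tested probe sets. Kcnq1 was then the 1 member wholly higher, beside 3.35%, with 1 member reading lower, beside 5.2%, and 0 wholly lower, beside 3.4%. The members called in any of these 3 scalings numbered 0, and their lowest adjusted p, by limma, was 0.347.

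**Figure D4:**
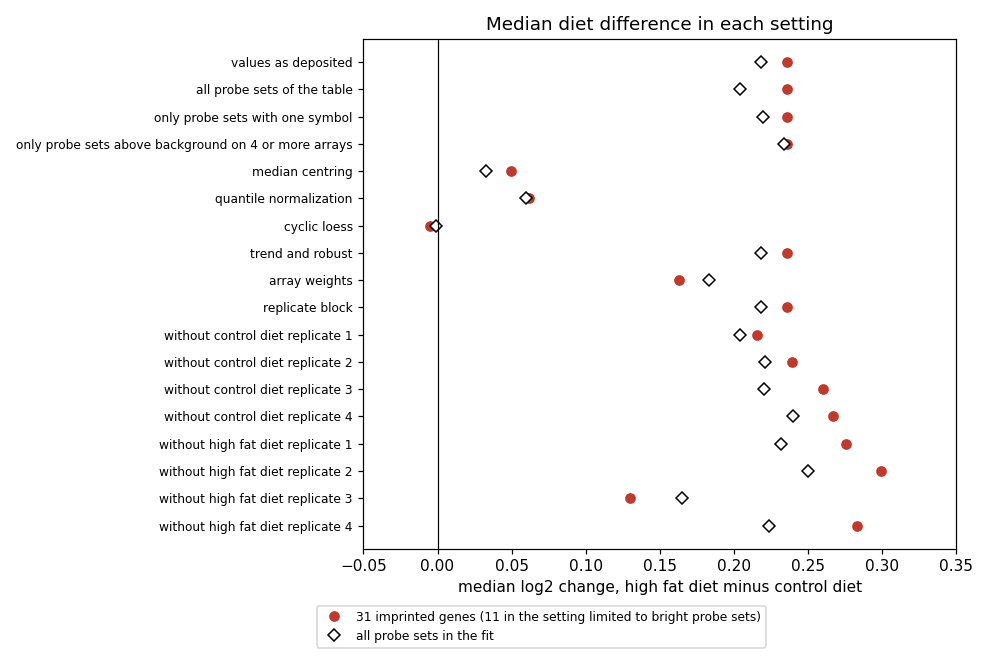
Median log2 change of the imprinted genes (filled) and of all probe sets in the same fit (open), high fat diet minus control diet, in each setting. The pair stands at 0.24 and 0.22 for values as deposited and falls near 0 after scaling between arrays, and it is lowest among the settings that leave out a pool without high fat diet pool 3 (0.13 and 0.16).

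Genes that set or keep imprints were followed as a list of 25, of which 23 were measured. The list was chosen with earlier results of these data known. In limma 0 passed the adjusted threshold. At an unadjusted p under 0.05, 1 read higher and 3 lower, beside 30.1% and 1.79% of all tested probe sets. Of the 23, 17 were above background on 4 or more arrays. A limma fit of only the probe sets that bright gave 23.7% higher and 3.34% lower. Changes of 18 of the 23 lay below the median change of all probe sets, and the list had a median of -0.12. By smallest p, Eed, a Polycomb subunit that acts in histone-based imprinting, differed by -1.18, Tet3, which oxidises methylcytosine, by 0.48, and Uhrf1, which guides maintenance methylation, by -1.71. Zfp57 and Trim28, which hold methylation at imprinted regions, were chosen after their values were seen. Zfp57 averaged 6.28 ± 0.07 with the high fat diet and 6.46 ± 0.79 with the control diet, and Trim28 averaged 7.12 ± 0.34 with the high fat diet and 7.61 ± 0.43 with the control diet (SD, n = 4 each). Neither difference passed the test (limma adjusted p = 0.725 and 0.207). Among 40 other imprinted genes, 29 were measured, 0 were called, 10 read higher at an unadjusted p under 0.05, beside 30.1% of all tested probe sets, and the median was 0.22, as over all probe sets. The 3 with the smallest p were Qpct (0.29), Th (0.38) and Tfpi2 (0.31). Qpct and Tfpi2 were above background on 0 arrays and Th on 4.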

How the data were processed

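The authors deposited log2 signals per probe set, made with RMA and Partek per the submitters' processing notes, which give no version or setting. RNA was isolated with PicoPure and amplified with Ovation PICO WTA and then TransPlex WTA, per the labels' protocols. The part of amplification in the spread between pools was not tested. For the annotation of the array, the genome build was not given in the sources used here. The table held 23332 probe sets in 8 columns, each named by its sample, and 0 columns of other samples. Of the 16015 probe sets with a symbol, 14996 had 1 and 1019 several. The RefSeq table (GRCm38.p6) matched 14941 symbols. Each measured member had a single probe set, so choosing the highest-mean row decided nothing.

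The fit was limma 3.58.1 in R 4.3.3 (lmFit, eBayes, two-sided, Benjamini-Hochberg over 16015 probe sets, threshold 0.05) on all 8 arrays, without a filter or block. It was also run on simulated data with independent noise per probe set. That simulation had no shift between arrays and no added outlying pools, so it does not show how the fit handles them. Members above background on at least 4 arrays, and the 4 others with the smallest p, were described in full. Alternatives changed the probe sets tested, scaling, variance model, block and arrays. The members and lists were chosen with earlier results of these data known.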

Additional observations from a re-analysis of the deposited data

Results flagged for a closer look

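In groups of 4 pools, a pool is named here where its gap to the nearest other pool exceeded Dixon's 95% critical value. Of 62 groups tested (31 members, 2 diets) 4 were named, and chance names about 1 in 20 groups. Ube3a was low in high fat diet pool 3, at 6.35, where the other 3 ran from 8.25 to 8.48. Tssc4 was high in the same pool, at 7.06, where the others ran from 5.56 to 5.63. Sfmbt2 was low in high fat diet pool 2, at 6.57, where the others ran from 6.95 to 7.03. H19 was high in control diet pool 3, at 7.49, where the others ran from 5.79 to 6.00.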

How the results depend on the processing

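No member was called in any of the 17 alternative settings, and the smallest adjusted p of a member was 0.0743 (Kcnq1, Ndn and Nap1l5 alike, with array weights). The count of all probe sets called, 1 as deposited, was 3 over the whole table, 0 with quantile normalization, cyclic loess or the replicate block, and 0 to 2 with an array left out. Same-numbered pools of the diets did not deviate together (correlations 0.03, -0.02, 0.01 and 0.08), and nothing in the labels pairs them. With the replicate block, 8 members read higher at an unadjusted p under 0.05, beside 22.3% of all probe sets in the same fit, against 11 without it, beside 30.1%. With the share of all probe sets in the same fit in parentheses, members reading higher at that level were 2 of 11 among bright probe sets (23.7%), 5 with median centring (8.68%), 5 with quantile normalization (9.98%), 3 with cyclic loess (4.1%) and 7 to 12 with an array left out (17.9% to 33.8%). Members reading lower were 1 with median centring (4.22%), 1 with quantile normalization (3.01%) and 1 with cyclic loess (5.2%). Leaving out an array gave 0 to 1 (1.15% to 2.37%). The medians of all, maternally and paternally expressed members were 0.050, 0.050 and 0.066 with median centring, 0.062, 0.062 and 0.091 with quantile normalization, and -0.0051, -0.0051 and 0.014 with cyclic loess. With an array left out they ran from 0.13 to 0.30, 0.13 to 0.29 and 0.17 to 0.32, each lowest without high fat diet pool 3. Against the 99th percentile 3.5 members per high fat diet array and 5 per control diet array were above background, where the 95th gave 11.25 and 12.25. The 99th percentile lay at 6.95 to 7.37 on high fat diet arrays and at 6.52 to 6.82 on control diet arrays. Ndn, Igf2, Cd81 and Slc22a18 were then above background on 0 arrays.

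Over all 31 members, the sign of the difference turned for 6 with median centring, 6 with quantile normalization, 11 with cyclic loess and 1 with array weights (Gab1, 0.078). Values with median centring, quantile normalization and cyclic loess were -0.094, -0.091 and -0.13 for Ppp1r9a, -0.028, -0.032 and -0.11 for Plagl1, -0.074, -0.078 and -0.16 for Dio3, -0.12, -0.11 and -0.11 for Inpp5f, -0.052, -0.053 and -0.11 for Impact, and -0.16, -0.16 and -0.22 for Mkrn3. Cyclic loess alone turned Cd81 (-0.075), Slc22a18 (-0.063), Igf2 (-0.016), Grb10 (-0.044) and Dcn (-0.0051). With an array left out, 7 members crossed 0, with ranges of -0.63 to 0.27 for Sfmbt2, -0.25 to 0.12 for Gab1, -0.51 to 0.053 for H19, -0.24 to 0.36 for Impact, -0.054 to 0.47 for Tssc4, -0.0057 to 0.13 for Inpp5f and -0.066 to 0.14 for Mkrn3. Beyond the scaling itself, the cause was not tested. With 4 pools a diet and most members near background, small differences could not be resolved.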
